A study of Mus musculus with 11 samples.

Results

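Among the stretches of chromatin that carried histone H3 acetylated at lysine 27 (H3K27ac) in CD4+ CD8+ thymocytes, 569 were called in both wild-type (WT) libraries and in neither library of Rad21-deleted (KO) cells. They were found by merging the touching or overlapping peaks of 4 H3K27ac lists into 24430 union regions and keeping those that a peak of each WT list overlapped by at least 1 bp and no KO peak touched. The 569 WT-only regions are 2.33% of the union, and 690 regions (2.82%) showed the reverse pattern. A further 12129 regions were called in all 4 libraries and are called shared regions below. The WT-only regions were chosen by their H3K27ac calls, so their H3K27ac values and their neighbourhood are given as a description, without a test. A missing KO call means that no peak reached the caller's threshold, and is not a measured absence of acetylation.

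H3K27ac marks active promoters and enhancers, and enhancers of genes that define a cell type often lie in groups along the chromosome. Cohesin is a ring of Smc1a, Smc3, Rad21 and a Stag subunit that holds distant stretches of chromatin together, often at sites bound by CTCF. CD4+ CD8+ thymocytes are the stage at which T cell precursors rearrange the T cell receptor alpha locus and are selected, and cohesin is known to shape that locus.

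The WT group consisted of wild-type thymocytes, and the KO group of Rad21 -/- thymocytes in which a floxed Rad21 allele had been removed by a Cre transgene under Cd4 control. Both groups were littermates aged 6 weeks, and the cells were sorted as CD4+ CD8+. Whether the controls carried Cre or the floxed allele, and whether the 2 libraries per genotype represent different mice, is not given in the sources used here. Each genotype had 2 H3K27ac libraries, and Smc1a, mapped in WT cells alone, had 2. The deletion acts through Cd4-driven Cre, so the cells had carried intact Rad21 until then, and remaining protein was not measured here. The H3K27ac lists held 15686 to 21973 peaks, with the fewest in WT replicate 2, and the Smc1a lists held 25484 and 17726 peaks. The lists contain no reads, so depth is unknown. Peaks cannot be checked against marker genes without gene positions of the mouse build mm9, which were not used here, so the labelled cell type and the deletion were taken as given.

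No sequence is shown for the regions, since no genome of the mm9 build was used. Gene names below come from general knowledge of where a few well-known genes lie in mm9. They name a neighbourhood, with no distance to the gene, and assign no target.

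Most WT-only regions were short, weakly scored calls, and a few were strong. The score is the authors' own value for each peak and is used here through its percentile within its list, where 100 is the highest. In WT replicate 1 the members' scores ran from 50.17 through a median of 93.23 to 2526.46, and in WT replicate 2 from 50.02 through 78.52 to 1018.02. The median percentile was 21.6 in the first list and 17.6 in the second, against 70.8 and 59.3 for shared regions. The lowest score of each list was 50 or 50.01, so the members' medians lay toward the low end of both lists. Scores below 100 in both WT lists were found at 235 of the 569 (41.3%). A percentile above 50 in both lists was reached by 11 members (1.93%), compared with 6955 of 12129 shared regions (57.3%).

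The WT libraries covered members over similar lengths in the median, with wide differences at single members. WT replicate 1 covered 421 to 5436 bp of a member (median 1453), WT replicate 2 covered 369 to 7180 bp (median 1418), and a single peak per library made up 543 of the 569. As a share of the member's length, coverage ran from 28.2% through a median of 94.7% to 100% in WT replicate 1 and from 33.9% through 89.5% to 100% in WT replicate 2. Across members the percentiles of both WT lists had a Spearman correlation of 0.31 (n = 569 regions), compared with 0.80 over the 12129 shared regions, a wider span of scores. These are correlations across regions of the same libraries, and regions are not independent replicates. In length, WT-only regions ran from 430 to 7217 bp, with a median of 1667 bp, against medians of 2922 bp (shared) and 1593 bp (KO-only). In sum they took up 1065 kb. WT replicate 1 peaks covered 931 kb of this, which was 1.65% of the acetylated length of that library, and WT replicate 2 peaks covered 889 kb, or 1.95%.

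**Figure D1:**
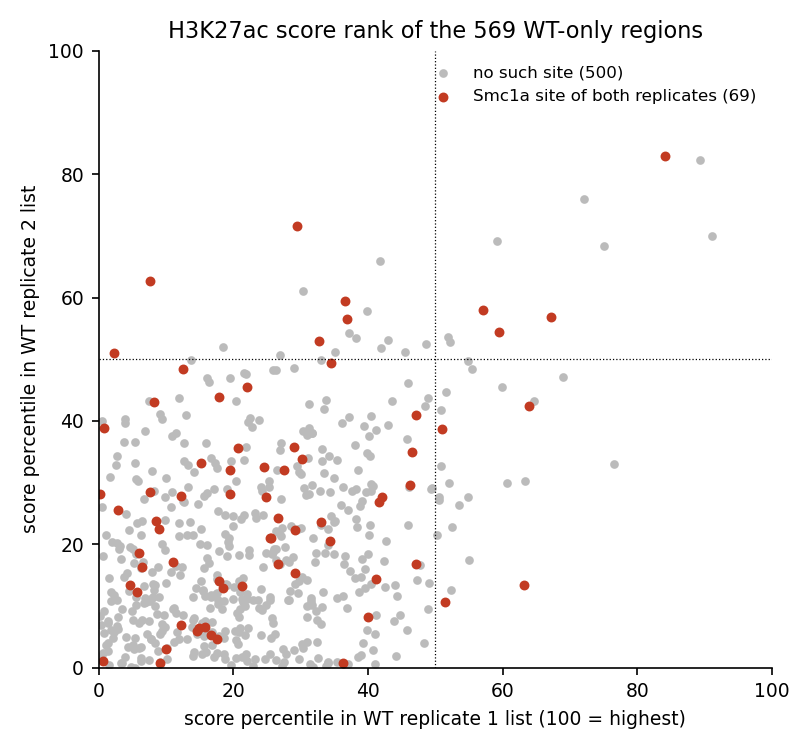
Score percentile of the 569 WT-only regions, with WT replicate 1 on the x axis and WT replicate 2 on the y axis, where 100 is the highest score of a list. Red points hold a Smc1a site of both replicates (69 regions), and the dotted lines mark the 50th percentile. Most points sit in the lower left, and 11 lie above 50 on both axes.

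The rule turns on a single base of overlap with a KO peak. The closest member to a KO call lay on chromosome 16 from 10743076 to 10746504. WT peaks covered 3419 and 3429 bp of it, and it lay 9 bp from a KO peak. In all, 17 members lay within 100 bp of a KO peak, 101 within 1000 bp and 373 (65.6%) within 10000 bp. On the other side of the edge, 947 regions were missed by a single library, a KO one. The KO library that did call them was replicate 1 for 654 and replicate 2 for 293. Among these, the region with the shortest KO coverage lay on chromosome 2 from 101436908 to 101439487, where peaks spanned 979 and 2580 bp in the WT libraries and 368 bp in KO replicate 2. The KO peak covered a median of 78.0% of these 947 regions, and under 25% of 16 of them.

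The strongest members by the lower of their 2 WT percentiles were spread over 12 chromosomes for the first 20, with lower percentiles of 43.7 to 82.9. They were longer than the typical member (median 3312 bp, range 1328 to 4596). A shared region lay within 12.5 kb of 11 of the 20, and a KO peak within 10000 bp of 13. Of the 20, 12 belonged to runs of at least 3 neighbouring members, which are described further down.

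The highest-ranked member lay on chromosome 17 from 36196439 to 36199412, in the part of the major histocompatibility complex that holds the H2-T genes, which encode nonclassical class I molecules. It scored 1451.40 in WT replicate 1 and 1018.02 in WT replicate 2, and its peaks covered 2953 and 2955 bp of its 2974 bp. The nearest peak of KO replicate 1 was 15256 bp away and that of KO replicate 2 was 15630 bp away. It carried Smc1a peaks in both WT libraries, with scores of 602.28 and 2090.44, the second at percentile 99.97 of its list. A strong Smc1a site thus lay on a stretch that both WT lists ranked high.

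The member of rank 5 lay in the same neighbourhood, from 36324166 to 36327693, with scores of 856.66 and 459.52. It was separated from the next shared region by 21 bp and from the nearest KO peak by 428 bp. Between them, a weaker member from 36270466 to 36272708 scored 271.59 and 87.64 and lay 28 bp from a shared region. The 3 members of this neighbourhood therefore differed in setting, the strongest standing apart and the others having shared acetylation right beside them. Over the span of this run, WT libraries covered 27.3 and 21.5 kb, and KO libraries 9.18 and 11.1 kb.

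The member of rank 2 lay on chromosome 18 from 12630075 to 12633515 and scored 2138.58 and 972.05. With 2 weaker members, from 12626027 to 12628622 and from 12668108 to 12670107, it formed an acetylated group of its own. No KO peak and no shared region lay inside the 44.1 kb between the first and the last of them, and the nearest KO peak to the strong member was 196347 bp away. Peaks of Smc1a replicate 2 overlapped the first and the second of these members (scores of 234.89 and 84.24), and Smc1a replicate 1 had none there. In this span no H3K27ac library had a call outside the 3 members, and by the rule no KO peak touches a member.

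The member of rank 3, on chromosome 1 from 16285790 to 16289693, scored 730.11 and 681.24. It was the last of 4 members in a stretch of 72.2 kb. Its neighbour from 16283206 to 16285762 scored 405.48 and 187.94. WT libraries covered 17.3 and 10.5 kb of the stretch (7.12 and 2.98 kb outside the members), and KO libraries 1.22 and 0.868 kb. No Smc1a site of both replicates lay in it.

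On chromosome 7 from 140077161 to 140081121, the member of rank 4 had the highest score of any WT-only region in WT replicate 1 (2526.46) and 503.43 in WT replicate 2. It stood alone, with the nearest shared region 25165 bp away, and overlapped a weak Smc1a peak of replicate 2 (score 76.49). The member of rank 7, on chromosome 4 from 10839647 to 10842829, scored 361.01 and 293.28 and carried Smc1a peaks of 967.71 and 813.05, at percentiles 96.2 and 98.4. These examples show that strong members occurred with and without Smc1a.

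Distance from any KO call picked out other members. A region on chromosome 16 from 66276270 to 66277855 lay 1333502 bp from the nearest KO peak, with WT percentiles of 31.6 and 10.9. The next, on chromosome 7 from 5308200 to 5309575, lay 275119 bp away at percentiles of 38.9 and 2.12. On chromosome 17 from 6429091 to 6430002 the distance was 255414 bp, with percentiles of 31.2 and 42.7. By the lower WT percentile these 3 stood at ranks 311, 505 and 65 of 569, and the member of rank 2, on chromosome 18, was also remote at 196347 bp. In all, 16 of the 569 (2.81%) had no KO peak within 100000 bp.

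WT-only regions mostly lay beside acetylation that both genotypes had. A shared region lay within 12.5 kb of 356 members (62.6%, exact binomial 95% interval 58.4 to 66.6). The same held for 218 KO-only regions (31.6%, 28.1 to 35.2) and for 45.7% of the 24430 union regions. Shared regions flanked 111 members on both sides within that distance (19.5%, 16.3 to 23.01), against 37 KO-only regions (5.36%, 3.803 to 7.32) and 10.8% of the union. At the other extreme, 31 members (5.45%) and 153 KO-only regions (22.2%) had no shared region within 100000 bp. The median distance to a shared region was 7328 bp from a WT-only region and 31162 bp from a KO-only one. Intervals cover counting error over regions only, and these distances come from the same lists that chose the regions.

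The class of the region next to each member was also counted. For 284 members (49.9%) the nearest union region was a shared one, which was near the 50.4% over the whole union. It was another WT-only region for 37 members (6.50%, 4.62 to 8.85), against 2.34% over the union. It was a KO-only region for 2 of the 569 (0.35%, 0.0426 to 1.26), against 2.71% over the union. The nearest neighbour of a KO-only region was KO-only in 50 of 690 (7.25%) and WT-only in 6 (0.87%). For most regions of either class the nearest neighbour was thus of neither class, and the differences between these shares were not tested.

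**Figure D2:**
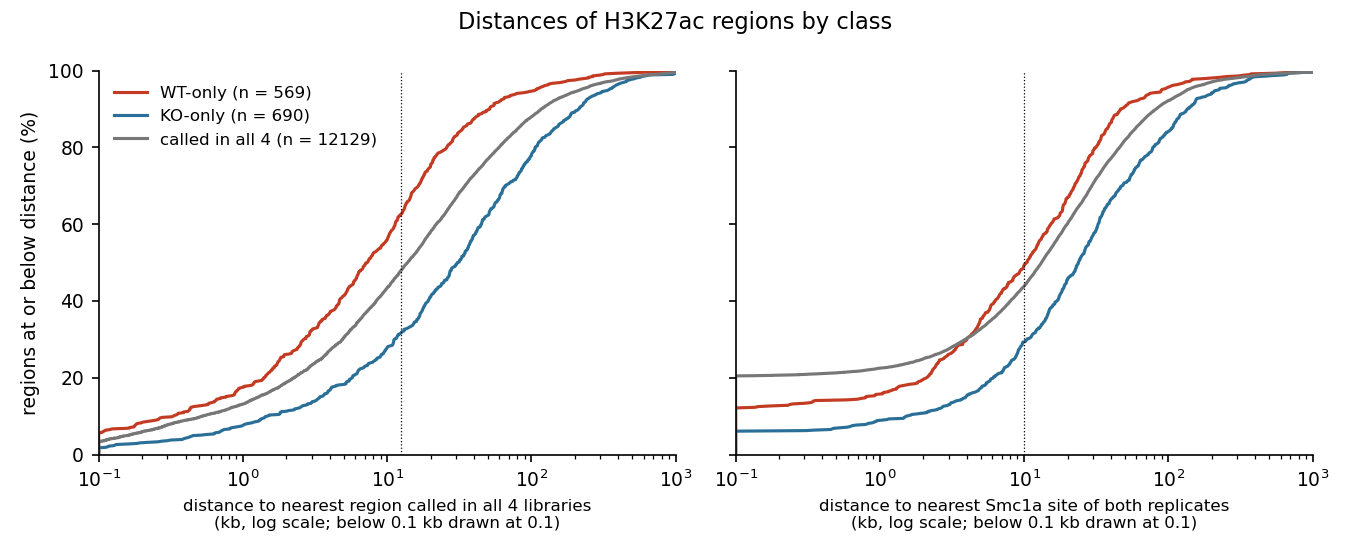
Share of regions (y axis, %) whose nearest shared region (left) or nearest Smc1a site of both replicates (right) lies at or below a distance (x axis, kb, log scale), for 569 WT-only, 690 KO-only and 12129 shared regions. Dotted lines mark 12.5 and 10 kb. At those lines the WT-only curves stand at 62.6% and 49.2%, the KO-only curves at 31.6% and 29.3%, and the shared curves at 47.9% and 43.8%.

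The shared regions beside WT-only regions were themselves less widely called in KO libraries. There were 509 shared regions within 12.5 kb of a member, with median covered lengths of 4380 and 4030 bp in the WT libraries and 3838 and 3265 bp in the KO libraries. Both WT libraries covered more than both KO libraries at 282 of the 509 (55.4%), against a background of 22.9% over the 12129 shared regions. The reverse held at 19 (3.73%), against a background of 17.4%. Beside KO-only regions the balance was the other way, with both KO libraries above both WT libraries at 81 of 283 shared regions (28.6%) and below them at 39 (13.8%). After division by each library's covered length, WT libraries stood above KO libraries at 194 of the 509 (38.1%, background 15.8%) and below at 11 (2.16%, background 11.7%).

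These shared neighbours were long, with a median length of 4737 bp, so lengths were also set side by side. Among shared regions of 2500 to under 4000 bp, WT coverage exceeded KO coverage at 68 of 127 beside a member (53.5%) and at 18.9% of the 4050 others. Among those of 4000 bp or more the shares were 59.6% of 297 and 31.6% of 3213. The neighbours also ranked high, at median percentiles of 82.9 and 81.4 in the WT lists and 77.0 and 76.3 in the KO lists. The difference was therefore present within length classes. It comes from the same libraries that chose the members, and no test was made of it.

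**Figure D3:**
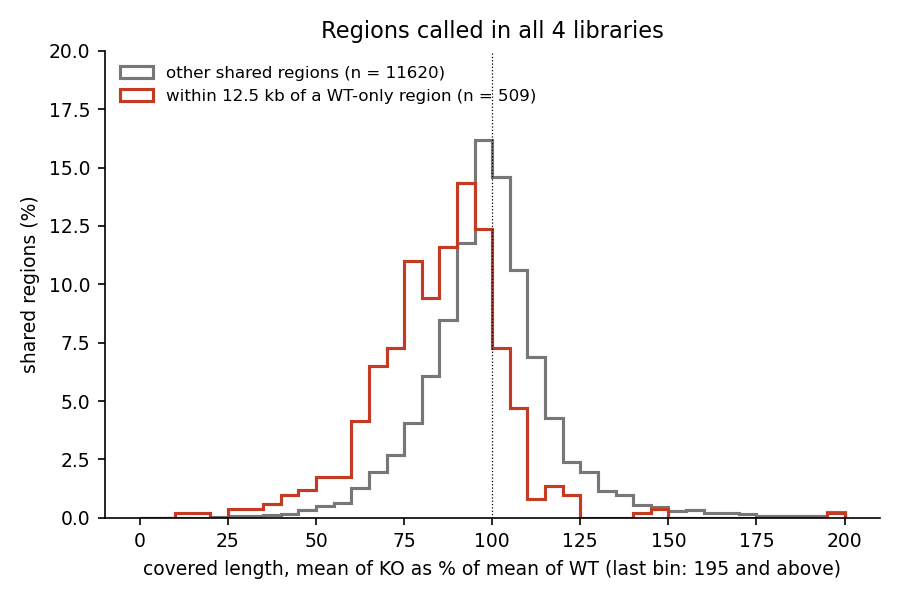
Covered length of shared regions in KO libraries as a percentage of that in WT libraries (x axis, mean of 2 libraries each), as the share of regions per 5-point bin (y axis, %). The 509 regions within 12.5 kb of a WT-only region (red) lie mostly below 100%, with a median of 87.2%. Other shared regions are grey, and the median over all 12129 shared regions is 98.4%.

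WT-only regions had another of their class nearby more often than KO-only regions did. Another member lay within 100000 bp of 227 of the 569 (39.9%, exact binomial 95% interval 35.8 to 44.0), whereas 109 of 690 KO-only regions (15.8%, 13.2 to 18.7) had another of their class that near. Linking members at that distance gave 30 runs of at least 3, which held 125 members (21.97%), and the largest held 14. KO-only regions formed 5 such runs with 17 regions, the largest of 4. Neither the share with a near region of the same class nor the runs have a background over the union. The median distance to the nearest union region was 2783 bp from a WT-only region and 9861 bp from a KO-only one. Over the union it was 6136.5 bp. Whether this denser setting accounts for the grouping was not tested. Members in runs of 3 or more were longer and ranked higher than single ones, with median lengths of 1914 and 1583 bp and median lower percentiles of 16.3 and 11.4. The runs spanned 27.1 to 214 kb on 15 chromosomes, 29 of them also held a shared region, and none held a KO-only region.

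Acetylation in these runs was also called less widely around the members. With the members left out, both WT libraries covered more of the span than both KO libraries in 27 of 30 runs, and KO above WT in 0. The exceptions were the run on chromosome 18, with no coverage outside its members in any library, and runs of 3 on chromosome 4 from 10839647 and on chromosome 12 from 78120691, where WT and KO values overlapped. The background was 16.1% of the 6468 fixed windows of 100 kb in which each library had some coverage outside members, and 21.8% of windows showed the reverse. Scaled to the covered length of each library, WT stood above KO in 26 of 30 runs and KO above WT in 0. The windows were not matched to the runs in length or density, and have no scaled share here. Runs were chosen for holding regions without a KO call, and no test was made of the counts of runs. Coverages and peak counts given for single runs include the members, which no KO peak touches by the rule, unless stated otherwise.

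**Figure D4:**
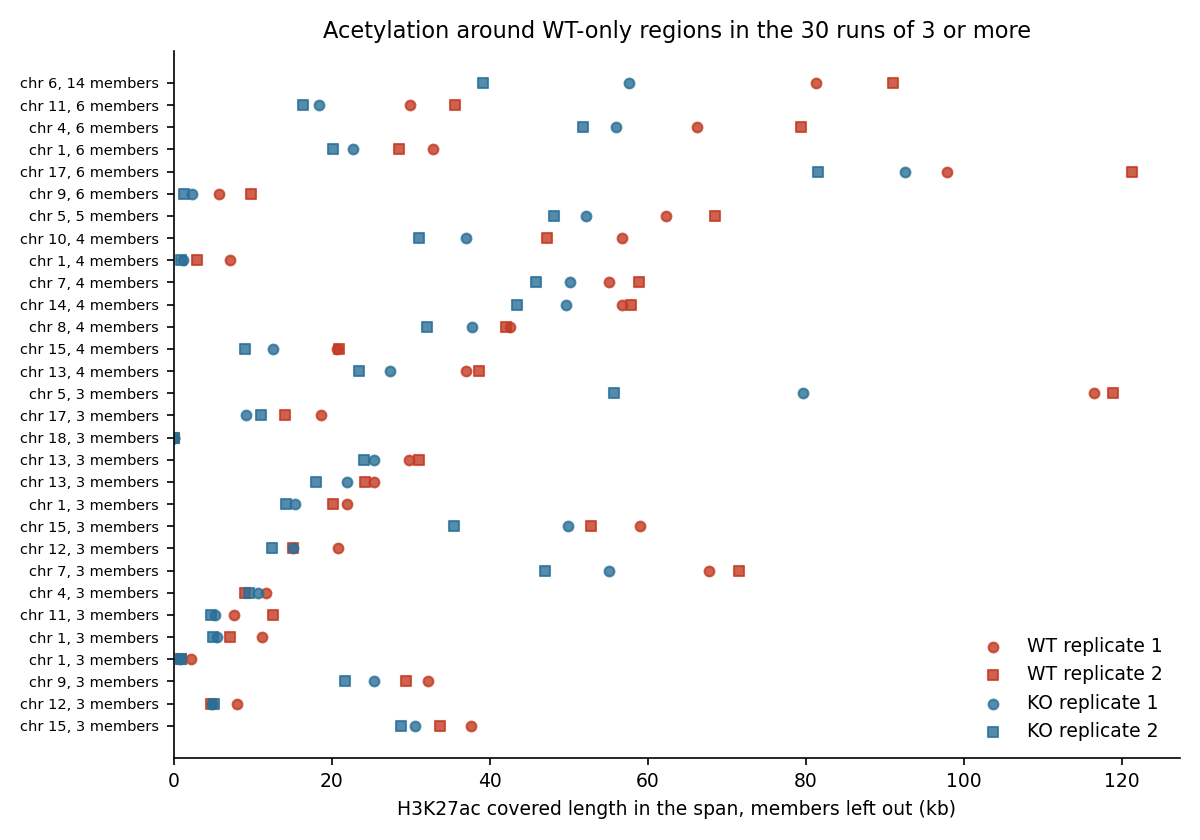
H3K27ac covered length (x axis, kb) in the span of each of the 30 runs of 3 or more WT-only regions, with the members left out, for WT replicate 1 and 2 (red) and KO replicate 1 and 2 (blue). Rows are ordered by the number of members, and in 27 of the rows both red marks lie to the right of both blue marks.

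The largest run lay on chromosome 6 from 8286080 to 8497193, a stretch of 211 kb in the neighbourhood of Umad1 and Glcci1. Glcci1 is a gene named for its induction by glucocorticoids, to which CD4+ CD8+ thymocytes are known to be sensitive, and in the RefSeq gene order it stands between Umad1 and Ica1. WT libraries covered 104 and 114 kb of the stretch in 28 and 39 peaks. KO libraries covered 57.6 and 39.1 kb in 17 and 12 peaks. Outside the 14 members the covered lengths were 81.3 and 91.0 kb in WT libraries, still above both KO values. The stretch also held 9 shared regions, 3 regions that a single KO library missed, 10 called in a single library, and no KO-only region.

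Within that run the strongest member, from 8386966 to 8389238, scored 391.82 and 479.88. The member from 8396525 to 8400051 was longer (3527 bp) and scored 193.10 and 408.57, and that from 8339507 to 8341457 scored 328.81 and 216.72. The lowest score in WT replicate 1 was 50.59, at the member from 8414464 to 8416951, which scored 153.68 in WT replicate 2. Distances to the nearest KO peak ran from 173 to 16167 bp over the 14 members. In this stretch 8 Smc1a sites of both replicates were found, and none of them overlapped a member. The nearest came within 249 bp, beside the member from 8384164 to 8385781. Single-replicate Smc1a peaks overlapped 3 members.

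Another 5 runs had 6 members each. On chromosome 17 from 52276414 to 52481890, in the gene-poor stretch beside Satb1, WT libraries covered 105 and 132 kb and KO libraries 92.6 and 81.5 kb. Outside the members the WT values were 97.9 and 121 kb. Satb1 encodes a chromatin organiser that thymocytes need for their development, and its next neighbour in the RefSeq gene order is Kcnh8. The stretch held 18 Smc1a sites of both replicates, and none lay on a member. The members there were weak in WT replicate 1, with scores of 54.04 to 111.12, against 68.47 to 225.08 in WT replicate 2.

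In the run on chromosome 4 from 102671840 to 102819559, peaks spanned 76.6 and 91.5 kb in WT and 56.0 and 51.8 kb in KO libraries. It held 17 Smc1a sites of both replicates, and 2 of its members carried one. On chromosome 11 from 67935397 to 68043943 the WT libraries covered 41.4 and 47.6 kb and the KO libraries 18.4 and 16.4 kb, with 2 Smc1a sites, neither on a member. In the run on chromosome 1 from 185874087 to 185998518, peaks spanned 44.4 and 38.6 kb in WT and 22.7 and 20.2 kb in KO libraries, and 2 members carried a Smc1a site. These spans include the members, which no KO peak touches by the rule. With the members left out, the WT values were 66.2 and 79.4 kb on chromosome 4. They were 29.9 and 35.6 kb on chromosome 11, and 32.7 and 28.5 kb on chromosome 1. In each run both WT values stayed above both KO values, and the runs differed in how much Smc1a they held.

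The most compact of these 5 lay on chromosome 9 from 72186780 to 72221469, a stretch of 34.7 kb. WT libraries covered 13.6 and 19.1 kb of it, and KO libraries 2.36 and 1.28 kb. It held 1 shared region and no Smc1a site of both replicates. The 6 members made up 10330 bp of the stretch, and no KO peak touches them by the rule. Outside the members the WT libraries covered 5.75 and 9.81 kb, still above both KO values.

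Some smaller runs lay near other well-known genes and are named for that reason. Others, such as runs of 4 on chromosomes 7, 8, 13, 14 and 15, are not described. The choice therefore shows no preference of the runs for known loci. In the neighbourhood of Ppm1h, which encodes a protein phosphatase, 4 members on chromosome 10 from 122135765 to 122225796 included the longest of the 569, whose peaks covered 5436 and 7180 bp of it. WT libraries covered 67.4 and 59.6 kb of this run (56.7 and 47.2 kb outside the members), and KO libraries 37.0 and 31.0 kb. Its second strong member, from 122223458 to 122225796, scored 237.44 and 158.91, carried Smc1a peaks of 61.12 and 194.16, and lay 89 bp before a shared region. The longest member had shared regions on both sides, at 422 and 120 bp.

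In the neighbourhood of Cux1, a homeobox transcription factor gene, a run of 3 members lay on chromosome 5 from 136863354 to 137010412. WT peaks spanned 126 and 127 kb of it (116 and 119 kb outside the members) and KO peaks 79.7 and 55.7 kb. Its middle member, from 136956728 to 136959449, scored 182.46 and 157.69 and was flanked by shared regions at 86 and 461 bp. At Ikzf3, which encodes the lymphoid zinc finger factor Aiolos, 3 weak members lay on chromosome 11 from 98366014 to 98393069, with scores of 57.87 to 154.77 and 57.73 to 100.89. Coverage of that stretch was 12.2 and 16.3 kb in WT (7.60 and 12.5 kb outside the members) and 5.27 and 4.68 kb in KO libraries. Both KO libraries reported a single peak there, against 4 and 7 peaks in the WT libraries.

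**Figure D5:**
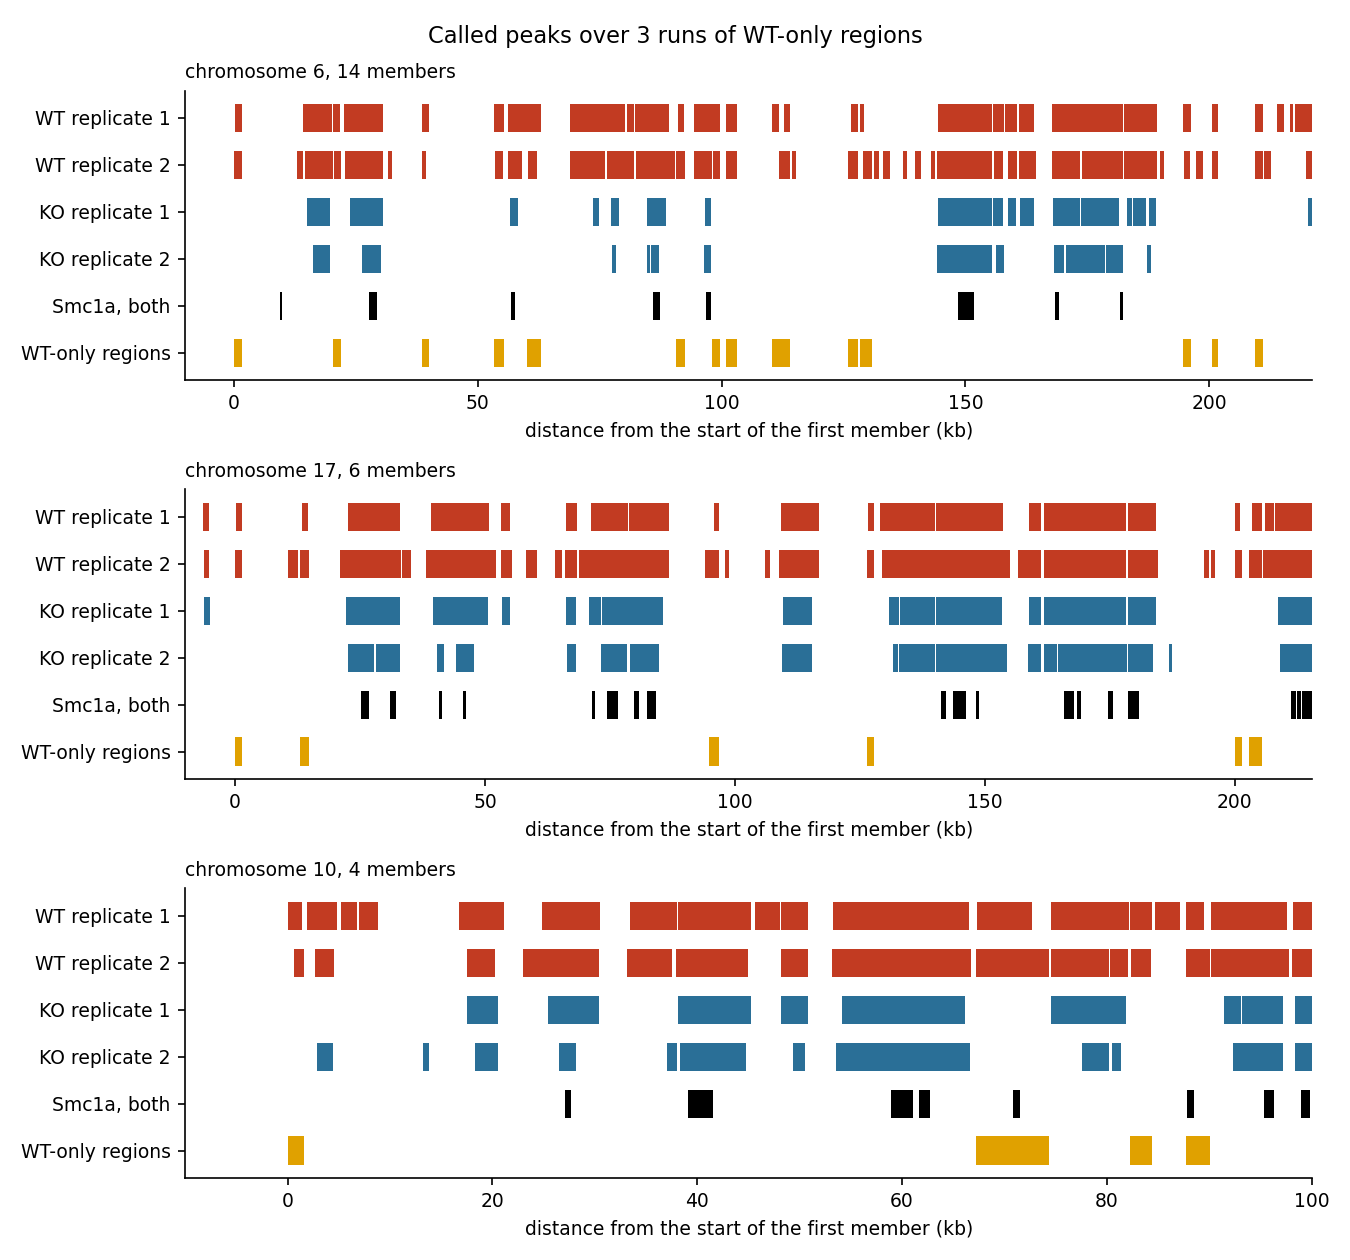
Called H3K27ac peaks of each library, Smc1a sites of both replicates and WT-only regions over 3 runs, on chromosomes 6, 17 and 10, by distance from the start of the first member (x axis, kb). Red bars are WT peaks, blue bars KO peaks, black bars Smc1a sites and yellow bars members, over which, by the rule, no blue bar lies.

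By chromosome, the share of union regions that were WT-only ran from 1.48% on chromosome 7 (23 of 1556) to 3.54% on chromosome 1 (58 of 1640), and chromosome Y had none of 4. Chromosome 6 stood second with 42 of 1330 (3.16%). With its run of 14 not counted as members but kept among the 1330 regions, the share on chromosome 6 was 2.11%. The 2.33% of the whole union still counts every run, and no run was left out on other chromosomes. KO-only regions had another order, with 4.42% on chromosome 3 the highest.

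Smc1a was not used to choose the members and gives a readout that does not depend on the H3K27ac calls. Both Smc1a libraries come from WT cells, and 2 libraries allow no test across samples, so shares are given per library with their counting intervals. A Smc1a peak overlapped 95 members in replicate 1 (16.7%, exact binomial 95% interval 13.7 to 20.02) and 91 in replicate 2 (16.0%, 13.1 to 19.3). The shares for KO-only regions were 13.9% (11.4 to 16.7) and 6.81% (5.05 to 8.96), and for the union 24.5% and 17.1%. Peaks of both replicates lay on 68 members, a peak of replicate 1 alone on 27 and a peak of replicate 2 alone on 23. A merged site of both replicates reached 69 members, 1 of them by its replicate 2 peak alone. The contrast with KO-only regions was thus wide in Smc1a replicate 2 and narrow, with intervals that overlapped, in replicate 1.

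The members' Smc1a share depended on length. Under 1500 bp a site of both replicates lay on 9 of 203 members (4.43%, 2.05 to 8.25), and on 8.31% of shared and 4.68% of KO-only regions. From 1500 to under 2500 bp it lay on 36 of 269 members (13.4%, 9.55 to 18.0), on 10.1% of shared and on 5.59% of KO-only regions. From 2500 to under 4000 bp it lay on 20 of 82 members (24.4%, 15.6 to 35.1), on 15.2% of shared and on 9.68% of KO-only regions. At 4000 bp or more there were 15 members, of which 4 had a site (26.7%). The share was 39.7% for the 3510 shared regions of that size and 42.9% (3 of 7) for KO-only regions. Over all lengths the share was 12.1% for members and 20.3% for shared regions, which are longer. In both classes from 1500 to under 4000 bp the members' share was the higher value, but its interval overlapped that of shared regions (9.14 to 11.1 in the lower class and 14.1 to 16.3 in the upper).

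Smc1a peaks at sites of both replicates on members ranged widely in rank. Their median percentile was 72.2 in replicate 1 (quartiles 36.1 and 91.4) and 69.9 in replicate 2 (quartiles 44.8 and 91.1). The medians were 59.5 and 59.5 at shared regions, 73.6 and 57.5 at KO-only regions, and 62.8 and 60.2 over the union. The member with the highest lower-of-2 Smc1a percentile lay on chromosome 6 from 34142424 to 34145039. Its Smc1a scores were 1439.23 and 948.84, and its WT acetylation percentiles 12.6 and 48.4. The next, on chromosome 2 from 152591431 to 152594141, had Smc1a scores of 1835.59 and 844.10 and acetylation percentiles of 29.0 and 35.9. On chromosome 7 from 85909484 to 85911817 the Smc1a scores were 1608.73 and 843.87, and a shared region ended 2 bp before it. The 5 members highest in Smc1a all had WT acetylation percentiles below 50, as most members did. The upper quartile over all 569 members was 34.03 in WT replicate 1 and 29.95 in WT replicate 2. These 5 therefore do not show that strong Smc1a went with weak acetylation.

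Smc1a more often lay near a member than on it. A site of both replicates lay within 10000 bp of 280 members (49.2%, 45.0 to 53.4), against 43.8% of shared regions and 39.2% of the union. The libraries differed in this. A replicate 1 peak lay that near 61.3% of members (57.2 to 65.4), 61.5% of shared regions and 56.7% of the union. For replicate 2 the shares were 57.5% (53.3 to 61.6), 49.1% and 43.7%. The excess over shared regions was thus seen in replicate 2 and not in replicate 1. For 211 members (37.1%, 33.1 to 41.2) a site of both replicates lay within that distance but outside the region, against 23.3% of KO-only regions, 23.5% of shared regions and 25.2% of the union. The share with an overlapping site was 12.1% for the 356 members beside a shared region and 12.2% for the 213 others, and 12.0% for the 125 members in runs of 3 or more. By acetylation, it was 9.47% for the 190 members of lowest rank, 10.6% for the middle 189 and 16.3% for the 190 of highest rank, whose median lengths were 1542, 1575 and 2011 bp. The shared regions beside members held such a site in 234 of 509 cases (46.0%), against 20.3% of all shared regions. Among shared regions of 4000 bp or more the values were 62.6% beside a member and 37.6% elsewhere.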

How the data were processed

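The study mapped H3K27ac in 2 WT and 2 KO libraries and Smc1a in 2 WT libraries, and 5 input libraries were not analysed here. Reads were aligned with Bowtie 0.12.8 to mm9, per the submitters' processing notes. Peak names carry the caller's name MACS, per the file contents, and each deposited list is 1 library. The sources used here do not give the caller's settings or control. The authors' deposited score per peak was used for ranks within a list.

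Intervals were merged and compared with Python 3.11.15, numpy 2.4.6 and pandas 2.3.3, with exact binomial intervals from scipy 1.17.1 and figures from matplotlib 3.10.9. Coordinates count from 1. Interval functions were tested on simulated data. Named members were the 20 highest by lower WT percentile, the 10 longest, the runs of 3 or more (the 6 largest in full), the 5 highest in Smc1a and the 5 farthest from KO peaks; the text gives those that show a pattern. The longest were named only where they add to a run. Regions and lists were chosen with earlier results of these data known. Gene lists were not run, since no mm9 annotation was used. RefSeq gene order is that of GRCm38.p6.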

Additional observations from a re-analysis of the deposited data

How the results depend on the processing

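No paired analysis was possible because the results come from no test. Of 74 alternative values over 9 results, 27 stayed near the reported value (within its counting interval, or 1.5 times for counts) and 47 moved; the cause was not tested. Runs and shared neighbours, and their alternatives, were chosen after seeing the data.

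With the upper 75% of each list by score, the Smc1a share was 17.2%, a shared region lay near 55.9%, another member near 34.6%, the median length was 2217 bp and 17 runs of 3 or more remained in number. With equal numbers of peaks per list, a shared region lay near 54.0% and the median length was 2000 bp. Requiring 50% coverage gave 16.9%, 57.9%, 49.6%, 1894 bp and 54 runs in the order of the first setting. Merging peaks within 1000 bp gave a Smc1a site within 10 kb at 44.0%, a shared region near 55.3%, another member near 29.9% and 17 runs. Windows of 5000 and 25000 bp put a shared region near 41.3% and 79.3%, and a Smc1a site near 35.3% and 73.6%. Windows of 50000 and 200000 bp put another member near 30.2% and 48.5%. Ranking by region length kept 8 of the 20 highest members. Scaling coverage to each library's total left 38.1% of shared neighbours higher in both WT libraries, against 15.8% of all shared regions.

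Leaving out each library in turn gave 871 (without KO replicate 2) to 3244 (without WT replicate 2) WT-only regions, with 1196 without WT replicate 1 and 1232 without KO replicate 1. The Smc1a share ran from 8.23% (without WT replicate 2) to 16.7%, Smc1a within 10 kb from 39.9% to 61.3%, another member from 45.9% to 66.6%, median length from 1269 to 1757 bp, runs from 44 to 333, and shared neighbours higher in WT from 59.3% (without KO replicate 2) to 79.0% (without KO replicate 1). The share over all shared regions moved with it, to 28.9% and 50.3%, and without KO replicate 2 more of them were higher in KO (39.3%). Each setting drops a condition of the rule, so the number of WT-only regions could not fall, and its rise is given as a description. The share with a shared region within 12.5 kb, here one called in all remaining libraries, stayed between 58.4% and 65.9%. Leaving out a Smc1a library kept the 569 members and counted every peak of the other library as a site. The Smc1a share was then 16.7% without Smc1a replicate 2 and 16.0% without Smc1a replicate 1. Within 10 kb it was 61.3% and 57.5%. Gene lists and cell type markers were not run, and depth is unknown.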
